A study of Mus musculus with 6 samples.

Results

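Hox genes and their miRNAs were examined in Achilles tendon, a hindlimb tendon, of 4-week-old mice of 3 genotypes. The members were every gene of the HoxA, HoxB, HoxC and HoxD clusters, the limb identity genes Pitx1, Tbx4 and Tbx5, and the 6 miRNA loci of the Hox clusters, namely Mir10a, Mir10b, Mir196a-1, Mir196a-2, Mir196b and Mir615. They were taken by name and not by a measured value, though earlier results of these data were known. That gave 39 Hox genes (11 of HoxA, 10 of HoxB, 9 of HoxC and 9 of HoxD) and 3 limb identity genes, 42 genes on 43 of the 54189 rows of the RNA-seq table because Hoxd4 had 2 rows, and 6 of the 2265 rows of the small RNA-seq table.

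Control mice were Dicer f/f without Cre. ScxHt mice carried ScxCre/+ Knock In with Dicer +/+, and Dicer cKO mice carried the same knock-in with Dicer f/f. Scx encodes scleraxis, a transcription factor of tendon and ligament cells, and Dicer cuts miRNA hairpins into mature miRNAs. In Dicer cKO mice the gene is meant to be lost where the Scx locus is active, and to be kept in the muscle, nerve, vessel and blood cells of the same tissue. ScxHt and Dicer cKO mice share the knock-in at 1 Scx allele, and ScxHt and Control mice both keep Dicer. Of the 6 libraries, each assay had 1 for every genotype, and the labels give the same sample number for both assays of a genotype. Per the study's supplement, each genotype was 1 mouse.

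Hox genes encode homeodomain transcription factors that lie in the order of their names along 4 chromosomes, and cells keep a combination of active Hox genes that records their place along the body and the limb. In the limb, groups 9 and 10 are known for the upper segment, group 11 for the middle segment and group 13 for the hand or foot, and Hox11 genes are also active in limb muscle connective tissue and tendon. Pitx1 and Tbx4 mark the hindlimb and Tbx5 marks the forelimb. The miRNAs of the clusters are known to repress Hox mRNAs, above all miR-196 through Hoxb8 and Hoxa7.

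The 5 mature miRNAs below carry the comparison between the loci. Their sequences were taken from RefSeq (GRCm38.p6), and the capitals mark the seed, bases 2 to 8, with which a miRNA pairs to a target.

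miR-10a-5p: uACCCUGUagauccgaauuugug
miR-10b-5p: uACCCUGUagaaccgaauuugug
miR-196a-5p: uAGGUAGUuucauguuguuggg
miR-196b-5p: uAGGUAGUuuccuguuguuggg
miR-615-3p: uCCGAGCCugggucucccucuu

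Mir10a lies in the HoxB cluster (chromosome 11, 96317165 to 96317274, plus strand), 993 bases from Hoxb4, and Mir10b in the HoxD cluster (chromosome 2, 74726070 to 74726137, plus strand), inside the Hoxd4 and Hoxd3 gene models. Their products share a seed and differ at U12A, counted from 1 at the 5′ end. Mir196a-1 (chromosome 11, 96265164 to 96265265, plus strand) lies 6192 bases from Hoxb9, and Mir196a-2 (chromosome 15, 102973350 to 102973434, plus strand) lies 1457 bases from Hoxc10. The product miR-196a-5p is the same for both. Mir196b (chromosome 6, 52230081 to 52230165, minus strand) lies within an exon of the Hoxa9 model, 1032 bases from Hoxa10, and its product has the same seed and differs from miR-196a-5p at A12C. Mir615 (chromosome 15, 103014910 to 103015001, plus strand) lies within the Hoxc5 model. All positions are on GRCm38.

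The RNA-seq counts summed to 16244232 (Control), 15769301 (ScxHt) and 14959399 (Dicer cKO) reads, and the small RNA-seq counts to 10986541, 8437993 and 8435829. Dicer1, the targeted gene, had 1919, 2025 and 1621 reads, a Dicer cKO over Control ratio of 0.877 (95% counting interval 0.821 to 0.938) and a ScxHt over Control ratio of 1.01 (0.950 to 1.08). The count covers the whole gene, exons outside the deletion included. The tissue label was checked against 12 tendon markers, among them Tnmd, Scx and Col1a1, and every one had at least 371 reads in each library. Summed over the list, tendon markers made up 140000, 125000 and 80500 CPM (counts scaled to 1 common library total), 20 skeletal muscle markers 67300, 38100 and 116000, 10 Schwann cell markers 237, 309 and 746, and 8 cartilage and bone markers 1570, 1820 and 731. In Dicer cKO over Control and by the limits given below, 7 of 12 tendon and 4 of 6 cartilage and bone markers above the minimum were lower, and 13 of 20 muscle and 6 of 7 Schwann cell markers were higher, with median ratios of 0.558, 0.483, 1.88 and 7.47. Of all rows above the minimum, 3.87% were higher and 4.17% lower. Endothelial markers made up 562, 410 and 663 CPM, and none passed a limit in this comparison. Satellite cell and myogenic markers made up 20.5, 12.6 and 32.2 CPM. Of these 5 only Myf6 was above the minimum, and it passed no limit, at 1.32 (1.13 to 1.55). Below the minimum, Pax7 had 14, 11 and 51 reads and a ratio of 3.78 (2.06 to 7.40). Myod1 had 8, 11 and 32 reads and a ratio of 4.15 (1.87 to 10.4). The intervals of Myog and Myf5 held 1. In Dicer cKO over Control, the tendon, cartilage and bone, muscle and Schwann cell lists thus moved beside the RNA-seq values that follow. In Dicer cKO over ScxHt, 2 of 5 endothelial markers were also higher (median ratio 1.64), beside 7.67% of all rows, and Myf6 was at 2.47 (2.05 to 2.99). In ScxHt over Control the median ratios were 1.19 (tendon), 0.819 (muscle), 0.739 (endothelium), 1.03 (cartilage and bone) and 0.899 (Schwann cell). The part of these lists in the Hox values was not tested. In tissue RNA, fewer cells of a type and less RNA per cell cannot be told apart.

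The Control tendon had the most Hox RNA from HoxA, HoxC and HoxD, and little HoxB RNA. The highest levels were at single genes of groups 8 to 11 and at Hoxc5. Levels are compared between genes as the deposited RPKM, reads scaled by the length of the gene and the depth of the library. Hoxc10 and Hoxa11 were highest, both at 11.8 RPKM in the Control library, which was above 88.1% and 88.0% of the rows with any RPKM. Hoxd8 followed at 8.44, Hoxa10 at 7.83, Hoxc5 at 5.34, Hoxa9 at 4.30 and Hoxd9 at 4.21. Not every gene of groups 8 to 11 was high, with Hoxd11 at 2.03 and Hoxc11 at 1.22, below Hoxc6 at 2.53. The groups 9 to 11 made up 59.4% of the summed Hox RPKM for Control, 67.0% for ScxHt and 56.9% for Dicer cKO. With 1 library per genotype, neighbours in this order cannot be set against a spread between mice.

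The HoxB cluster contributed 5.32%, 3.69% and 4.53% of the summed Hox RPKM in the Control, ScxHt and Dicer cKO libraries, although its 10 genes outnumber those of HoxC and HoxD. Its highest member in the Control library, Hoxb6, had 53, 26 and 43 reads. At the far ends of the clusters, Hoxb1, Hoxb13, Hoxc12, Hoxc13 and Hoxd12 had 0 reads in all 3 libraries, and Hoxd13, a gene of the digits, had 0, 0 and 2. A count of 0 allows up to 3 reads in a library. Hoxa13, also a gene of the most distal limb, was the only group 13 gene above 3 reads, with 24, 44 and 45 reads. The rows with Hox names ranked the genes alike in the 3 libraries. Over 40 Hox rows, Pearson's r of log2(RPKM + 1) was 0.965 between Dicer cKO and Control and 0.975 between ScxHt and Control. These are correlations across genes, whose lengths and annotation are shared, and genes are not replicates.

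**Figure D1:**
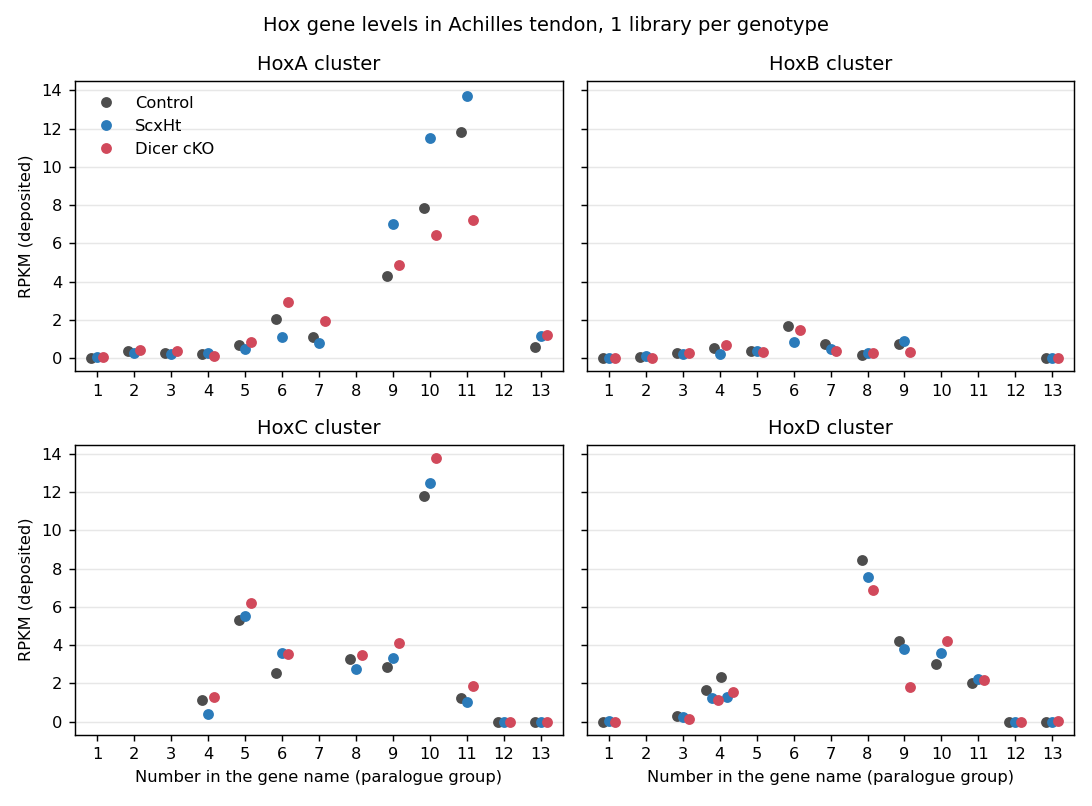
Deposited RPKM (vertical axis) of each Hox gene by the number in its name (horizontal axis), in 1 panel per cluster, with 1 point per library and genotype. HoxA points rise towards group 11 (11.8, 13.7 and 7.22 RPKM for Hoxa11 in Control, ScxHt and Dicer cKO), HoxC has its top at Hoxc10, HoxD at Hoxd8, and every HoxB point lies below 2 RPKM. The 2 rows of Hoxd4 are drawn side by side.

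The limb identity genes had the hindlimb pattern in every library. Tbx4, the hindlimb T-box gene (chromosome 11, 85886422 to 85916097, plus strand), had 268, 344 and 247 reads (4.85, 6.41 and 4.86 RPKM) in the Control, ScxHt and Dicer cKO libraries. Pitx1, the homeobox gene upstream of Tbx4 (chromosome 13, 55825051 to 55836192, minus strand), had 210, 237 and 126 reads (4.87, 5.66 and 3.17 RPKM). Tbx5, the forelimb counterpart (chromosome 5, 119832668 to 119885219, plus strand), had 22, 12 and 2 reads (0.290, 0.163 and 0.0215 RPKM). Per length, both hindlimb genes were thus far above Tbx5 in all 3 libraries.

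Whether loss of Dicer, or the knock-in that it shares with ScxHt, went with other Hox levels was asked with ratios of normalized reads. Counts were divided by size factors of the 2 libraries compared. Genes needed a mean above 50 normalized reads. A gene is called higher where the ratio exceeded 1.67 and lower where it was under 0.60, and each ratio has a 95% Clopper-Pearson interval that covers counting error only. No p-value can be had from 1 library per group. In each comparison 16 of the 43 rows were above the minimum, all from HoxA, HoxC, HoxD, Pitx1 and Tbx4, and the rest are given further below.

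Of the 16 members, none was higher in Dicer cKO over Control and 2 were lower, Hoxd9 and Hoxa11. Of all 13504 rows above the minimum, 3.87% were higher and 4.17% lower. The median log2 ratio of the members was 0.03 and that of all rows -0.03. The interval lay above 1 in 4 members and below 1 in 6, against 21.5% and 28.4% of all rows. The median of the members was thus 0.07 above that of the table on the log2 scale.

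In ScxHt over Control, where neither genotype lacks Dicer, none of the 16 was higher and 1 was lower, the second row of Hoxd4, beside 3.05% and 4.73% of 13563 rows. The interval lay above 1 in 4 members and below 1 in 3, beside 26.4% and 23.7% of all rows, and the median log2 ratio was 0.07 (0.02 over all rows). In Dicer cKO over ScxHt, 1 member was higher, Hoxa7, and 4 were lower, Hoxa10, Hoxa11, Hoxd9 and Pitx1, beside 7.67% and 5.68% of 13555 rows. The interval lay above 1 in 3 members and below 1 in 6, beside 24.8% and 30.5% of all rows, and the median log2 ratio was 0.04 (-0.03 over all rows). The comparisons share libraries pairwise, so a high or low value in 1 library enters 2 of them.

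**Figure D2:**
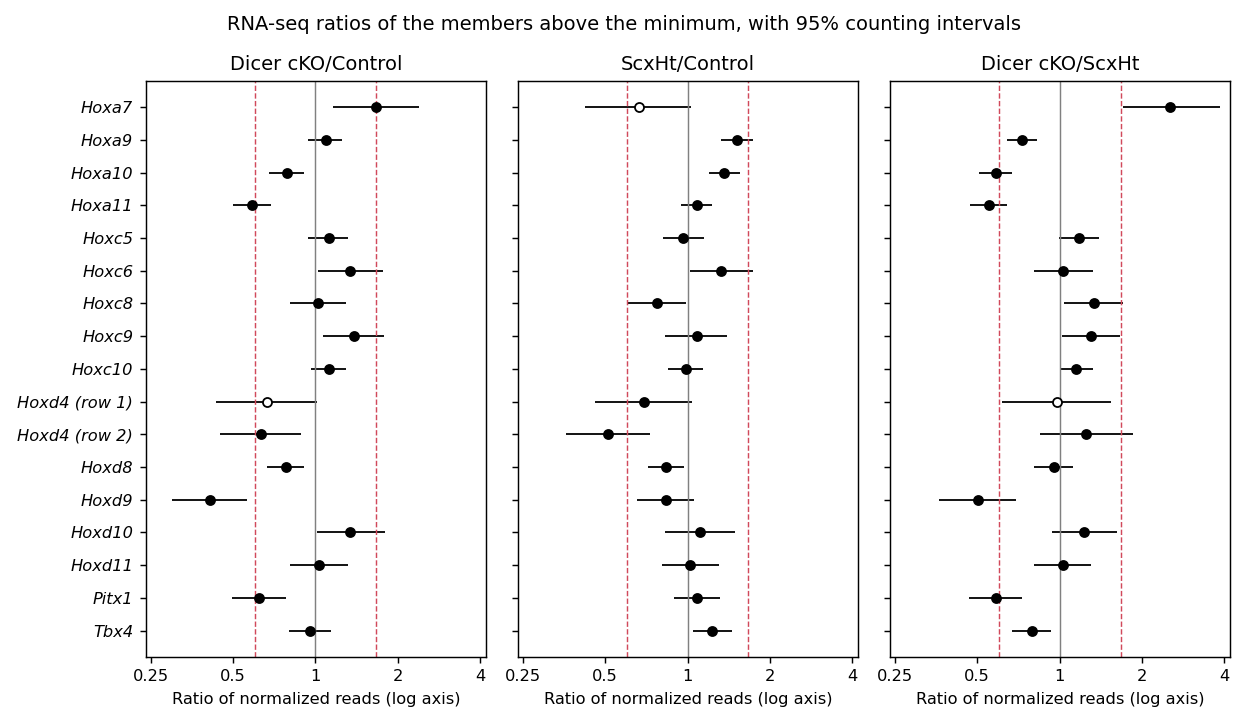
Ratio of normalized RNA-seq reads (log axis) with its 95% counting interval for each member above the minimum in any comparison, in 1 panel per comparison. Dashed lines mark 0.60 and 1.67, the grey line marks 1, and open points are below the minimum in that comparison. Hoxd9 and Hoxa11 lie left of 0.60 in Dicer cKO over Control and in Dicer cKO over ScxHt, and Hoxa7 lies at 2.54 in Dicer cKO over ScxHt.

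Hoxd9 had the lowest Dicer cKO over Control ratio of the members above the minimum. This group 9 gene of the HoxD cluster (chromosome 2, 74697727 to 74700208, plus strand) had 146 (Control), 127 (ScxHt) and 58 (Dicer cKO) reads. Its ratio was 0.413 (0.299 to 0.563) for Dicer cKO over Control, 0.834 (0.652 to 1.06) for ScxHt over Control and 0.503 (0.362 to 0.692) for Dicer cKO over ScxHt. The Control and ScxHt libraries were alike within counting error, and the Dicer cKO library was low against both. Its neighbours did not share this pattern. Hoxd10 had 89, 103 and 115 reads and a Dicer cKO over Control ratio of 1.34 (1.01 to 1.79), and Hoxd11 had 139, 148 and 138 reads and a ratio of 1.03 (0.809 to 1.31). Hoxd8, on the other side, had 376, 327 and 282 reads, and its ratios of 0.779 (0.665 to 0.911) for Dicer cKO over Control and 0.833 (0.716 to 0.969) for ScxHt over Control were both below 1.

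Hoxa11, the group 11 gene of the HoxA cluster (chromosome 6, 52242106 to 52245810, minus strand), had 438, 494 and 247 reads in the Control, ScxHt and Dicer cKO libraries. Its ratio was 0.586 (0.499 to 0.686) for Dicer cKO over Control, 1.08 (0.948 to 1.23) for ScxHt over Control and 0.551 (0.471 to 0.643) for Dicer cKO over ScxHt. The Control and ScxHt libraries were alike within counting error and the Dicer cKO library was low. In total-count scaling its Dicer cKO over Control ratio of 0.612 no longer passed 0.60. Hoxa11os, a noncoding RNA from the opposite strand, shares 800 of the 2287 exonic bases of Hoxa11, and the strand setting of the counting is not given in the sources used here. It had 183, 213 and 139 reads and ratios of 0.789 (0.628 to 0.989) and 1.12 (0.911 to 1.37).

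Hoxa10 and Hoxa9 were highest in the ScxHt library. Hoxa10 had 416 (Control), 592 (ScxHt) and 314 (Dicer cKO) reads, and its ratios were 0.784 (0.675 to 0.910) for Dicer cKO over Control, 1.36 (1.20 to 1.55) for ScxHt over Control and 0.584 (0.508 to 0.671) for Dicer cKO over ScxHt. Hoxa9, whose gene model contains Mir196b, had 390, 617 and 408 reads and ratios of 1.09 (0.943 to 1.25), 1.52 (1.33 to 1.73) and 0.729 (0.641 to 0.827). For Hoxa9 the Control and Dicer cKO libraries were alike within counting error, and the ScxHt library stood above both. Pitx1, with the read counts given above, was low in the Dicer cKO library alone, at 0.623 (0.496 to 0.781) against Control and 0.586 (0.468 to 0.730) against ScxHt, while Tbx4 had ratios of 0.957 (0.802 to 1.14) and 0.791 (0.669 to 0.934). Pitx1 against Control stayed between 0.623 and 0.652 in every scaling tried and so never passed 0.60.

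Hoxa7, a group 7 gene of HoxA (chromosome 6, 52214491 to 52221854, minus strand), went the other way. It had 52 (Control), 36 (ScxHt) and 83 (Dicer cKO) reads. The Dicer cKO over Control ratio was 1.66 (1.16 to 2.39), just inside the limit of 1.67, and 4 of 5 other settings of scaling or pseudocount put it past the limit. The Dicer cKO over ScxHt ratio was 2.54 (1.70 to 3.87), while ScxHt over Control, below the minimum, was 0.663 (0.421 to 1.03). Beside it Hoxa6 had 29, 15 and 39 reads, below the minimum, with a Dicer cKO over ScxHt ratio of 2.86 (1.54 to 5.59).

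None of the HoxC genes above the minimum passed a limit. Hoxc10, the most abundant of them (chromosome 15, 102966796 to 102971893, plus strand), had 367, 377 and 395 reads and ratios of 1.12 (0.967 to 1.29) for Dicer cKO over Control and 0.984 (0.850 to 1.14) for ScxHt over Control. Hoxc5 had 268, 270 and 288 reads and ratios of 1.12 (0.942 to 1.32) and 0.965 (0.812 to 1.15), but its annotated model spans Hoxc6, Hoxc8, Hoxc9, Mir196a-2 and Mir615 and shares 166 exonic bases with Hoxc10, so reads of the 2 genes may not be separate. Hoxc9 had 113, 127 and 150 reads and Hoxc6 had 99, 137 and 128. Their Dicer cKO over Control ratios were 1.38 (1.07 to 1.78) and 1.34 (1.02 to 1.76), above 1 and short of 1.67. Hoxc8, with 151, 122 and 148 reads, was lowest in the ScxHt library, at 0.774 (0.605 to 0.989) of Control.

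The 2 rows of Hoxd4 had 61, 44 and 39 reads and 97, 52 and 59 reads. The first row had ratios of 0.664 (0.432 to 1.01) for Dicer cKO over Control, below the minimum, and 0.691 (0.458 to 1.04) for ScxHt over Control. The second row had ratios of 0.632 (0.449 to 0.882) for Dicer cKO over Control, 0.514 (0.360 to 0.727) for ScxHt over Control and 1.25 (0.846 to 1.85) for Dicer cKO over ScxHt. In the second row the interval was below 1 for both libraries with the knock-in, and only that for ScxHt passed 0.60. The model of Hoxd4 contains Mir10b, and it shares 388 exonic bases with Hoxd3 and 347 with the antisense Hoxd3os1.

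Summed by cluster, no ratio passed a limit. The interval of Dicer cKO over Control lay above 1 for HoxC and below 1 for HoxA and HoxD, and it held 1 for HoxB. HoxC had 1086, 1082 and 1214 reads and a Dicer cKO over Control ratio of 1.16 (1.07 to 1.26), and HoxD had 928, 818 and 702 reads and a ratio of 0.786 (0.711 to 0.867). HoxD was also below Control in the ScxHt library, at 0.845 (0.768 to 0.929), and Dicer cKO over ScxHt held 1, at 0.946 (0.854 to 1.05). HoxA had 1413, 1848 and 1205 reads, with the ScxHt library highest at 1.25 (1.17 to 1.34) of Control and Dicer cKO at 0.886 (0.819 to 0.957). HoxB had 167, 127 and 131 reads, with ratios of 0.815 (0.643 to 1.03) for Dicer cKO over Control and 0.729 (0.574 to 0.923) for ScxHt over Control. All Hox genes together had 3594, 3875 and 3252 reads and a Dicer cKO over Control ratio of 0.940 (0.896 to 0.986).

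Within HoxA the sums of 2 sets of groups lay on opposite sides of 1, although single genes did not all follow their sum (Hoxa9 had 1.09 and Hoxa4, with 6, 7 and 2 reads, 0.346 in Dicer cKO over Control). Groups 9 to 11 had 1244, 1703 and 969 reads and ratios of 0.809 (0.743 to 0.880) for Dicer cKO over Control and 1.31 (1.22 to 1.41) for ScxHt over Control. Groups 4 to 8 had 107, 72 and 147 reads and ratios of 1.43 (1.10 to 1.85) and 0.645 (0.471 to 0.877). Between Dicer cKO and ScxHt, the first sum was at 0.627 (0.579 to 0.679) and the second at 2.25 (1.69 to 3.03). Over all clusters, groups 9 to 11 held 62.1% of the reads of groups 4 to 11 in the Control library (95% Clopper-Pearson interval 60.5 to 63.7), 70.4% for ScxHt (69.0 to 71.9) and 60.4% for Dicer cKO (58.7 to 62.1). The ScxHt library stood apart here, and the Control and Dicer cKO intervals overlapped. ScxHt was also the library with the lowest summed muscle marker reads, at 38100 CPM, of which the long gene Ttn gave 329060 of 601416 reads. Single markers went both ways, with 8 of 20 lower and 4 higher in ScxHt over Control, beside 4.73% and 3.05% of all rows. A link to the Hox shares was not tested.

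**Figure D3:**
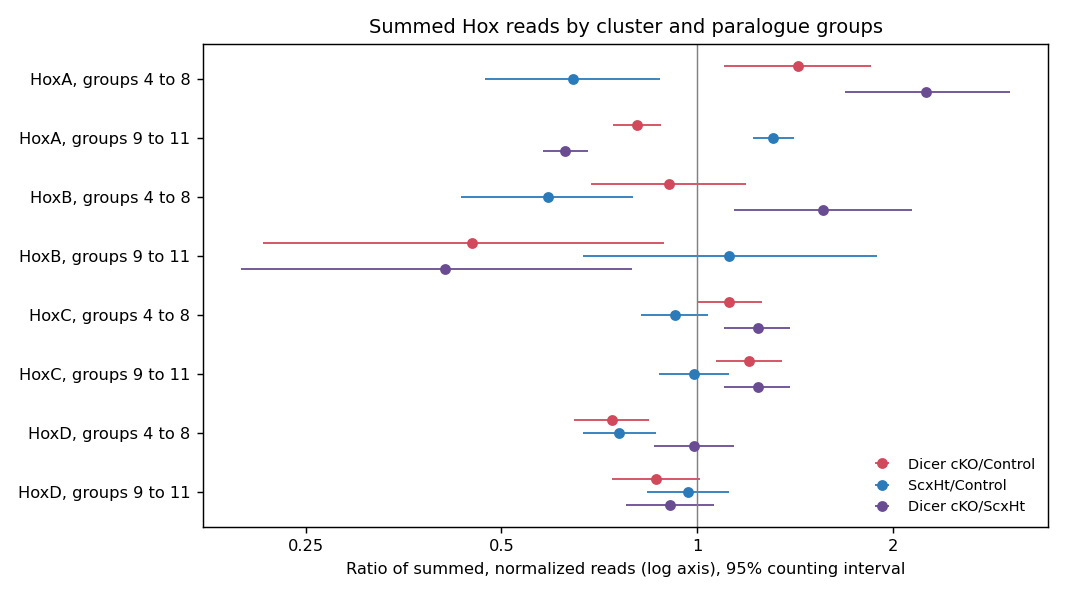
Ratio of summed and normalized Hox reads (log axis) with 95% counting intervals, by cluster and by groups 4 to 8 or 9 to 11, for the 3 comparisons. HoxA groups 4 to 8 and HoxA groups 9 to 11 lie on opposite sides of 1 in each comparison (1.43 and 0.809 in Dicer cKO over Control), whereas both HoxC sums lie at or above 1 in the comparisons with Dicer cKO. HoxB groups 9 to 11 is Hoxb9 alone.

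Members below the minimum give coarse values. Down to a mean of 10 normalized reads there were 16 more members in Dicer cKO over Control, 15 in ScxHt over Control and 14 in Dicer cKO over ScxHt. At this minimum 1 member was higher and 6 lower in Dicer cKO over Control (8.44% and 7.74% of 18522 rows), 1 and 7 in ScxHt over Control (6.70% and 8.72%), and 8 and 5 in Dicer cKO over ScxHt (11.8% and 8.41%). Of all 32, 31 and 30 members at that minimum, the interval lay above 1 in 5, 5 and 8 and below 1 in 8, 7 and 7. Over all rows at that minimum, 19.9%, 22.6% and 23.0% had an interval above 1, and 24.1%, 21.2% and 25.6% had it below 1. For the added members alone, the interval lay above 1 in 1, 1 and 5 and below 1 in 2, 4 and 1. These last counts are not to be set against the shares, which include rows with far more reads. The 4 added members that lay below 1 in ScxHt over Control were Hoxa6, Hoxb4, Hoxb6 and Hoxc4. Hoxc4 had 48, 17 and 49 reads and a ScxHt over Control ratio of 0.339 (0.183 to 0.601), and Hoxb4 had 22, 9 and 26 reads and a ratio of 0.392 (0.159 to 0.886). In both genes the Control and Dicer cKO libraries were alike within counting error, the ScxHt library was low, and the ratio of Dicer cKO over ScxHt was 3.18 (1.80 to 5.88 for Hoxc4 and 1.45 to 7.72 for Hoxb4). The other added members with an interval above 1 in Dicer cKO over ScxHt were Hoxa6, Hoxb6 and Hoxc11.

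The added members with an interval off 1 in Dicer cKO over Control were Hoxa13, Hoxb9 and Tbx5. The Hoxa13 ratio was 1.95 (1.16 to 3.34), and its ScxHt over Control ratio was 1.76 (1.05 to 3.02), so that the Control library was the low one. Hoxb9 had 30, 35 and 13 reads and a ratio of 0.450 (0.215 to 0.889). Tbx5 had a ratio of 0.0944 (0.0108 to 0.384), from the 2 reads of the Dicer cKO library. Hoxc11, with 40, 32 and 56 reads, had a Dicer cKO over ScxHt ratio of 1.93 (1.23 to 3.08). The further members had at most 31 reads in any library.

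Apart from Mir615, the loci ranked between 36 and 82 by reads in every library, of 634, 625 and 579 rows with reads, and Mir615 ranked 216, 201 and 215. Together the 6 loci held 1.04% of the small RNA reads for Control, 0.823% for ScxHt and 0.788% for Dicer cKO. In reads of the Control library, Mir196a-2 had 31327, Mir196b 25992, Mir196a-1 25626, Mir10b 24997, Mir10a 6331 and Mir615 163. Reads were counted per hairpin, so the arms are not told apart, and how reads that match both Mir196a loci were assigned is not given in the sources used here.

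All loci but Mir615 had fewer normalized reads in both libraries with the knock-in than in the Control. Of the 6, 1 was lower and none higher in Dicer cKO over Control, beside 4.19% lower and 8.38% higher of 334 rows with a mean above 15. The interval lay below 1 in 5 and above 1 in none, beside 31.7% and 31.1%. These 5 loci had at least 3451 reads in each library, so their intervals are narrower than those of rows near the minimum. Of the 5, the Mir196a loci give the same product and may share reads. In ScxHt over Control 1 (Mir10b) was lower and none was higher, beside 6.93% and 3.01% of 332 rows, and the interval lay below 1 in 5 and above 1 in 1, beside 32.8% and 24.4%. The median ratio of the 6 was 0.680 in Dicer cKO over Control (0.984 over all rows), 0.707 in ScxHt over Control (0.985) and 1.0 in Dicer cKO over ScxHt (0.996). The first 2 comparisons share the Control library. In Dicer cKO over ScxHt none passed a limit, beside 11.2% higher and 2.17% lower of 322 rows, and the interval lay above 1 in 1 and below 1 in 2, beside 25.8% and 33.9%.

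Mir196b had the lowest Dicer cKO over Control ratio of the 6 loci. It had 25992 (Control), 17632 (ScxHt) and 12954 (Dicer cKO) reads, at 2370, 2090 and 1540 CPM. Its ratios were 0.571 (0.559 to 0.583) for Dicer cKO over Control, 0.764 (0.750 to 0.779) for ScxHt over Control and 0.735 (0.718 to 0.752) for Dicer cKO over ScxHt. The order was Control, ScxHt, Dicer cKO in every scaling tried, though with total counts the first ratio became 0.649 and no longer passed 0.60. Its host gene Hoxa9 had another order, with ratios of 1.09 and 1.52, and the next gene, Hoxa10, had 0.784 and 1.36.

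The Mir196a loci did not differ between ScxHt and Dicer cKO by more than a few percent. Mir196a-1 had 25626, 15861 and 16110 reads and ratios of 0.720 (0.706 to 0.735) for Dicer cKO over Control and 0.697 (0.684 to 0.711) for ScxHt over Control. Mir196a-2 had 31327, 19946 and 19724 reads and ratios of 0.722 (0.709 to 0.735) and 0.717 (0.705 to 0.730). Between Dicer cKO and ScxHt they stood at 1.02 and 0.989. Mir196b, which gives a product with the same seed, stood at 0.735 in that comparison, and its interval overlapped with neither.

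Both miR-10 loci were also below Control in the 2 other libraries, and Mir10b differed between them. Mir10b had 24997 (Control), 12362 (ScxHt) and 13983 (Dicer cKO) reads, with ratios of 0.641 (0.628 to 0.655) for Dicer cKO over Control, 0.557 (0.545 to 0.569) for ScxHt over Control and 1.13 (1.10 to 1.16) for Dicer cKO over ScxHt. Of Hoxd4, around it, the second row had an interval below 1 in both comparisons with Control and the first row did not. Mir10a had 6331, 3451 and 3527 reads and ratios of 0.638, 0.614 and 1.02. Mir615 had 163, 226 and 163 reads and was highest in the ScxHt library, at 1.56 (1.27 to 1.92) of Control, whereas Dicer cKO over Control was 1.15 (0.917 to 1.43). With total counts, the ScxHt over Control ratio of Mir10b became 0.644 and no longer passed 0.60, and that of Mir615 became 1.81 and passed 1.67.

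**Figure D4:**
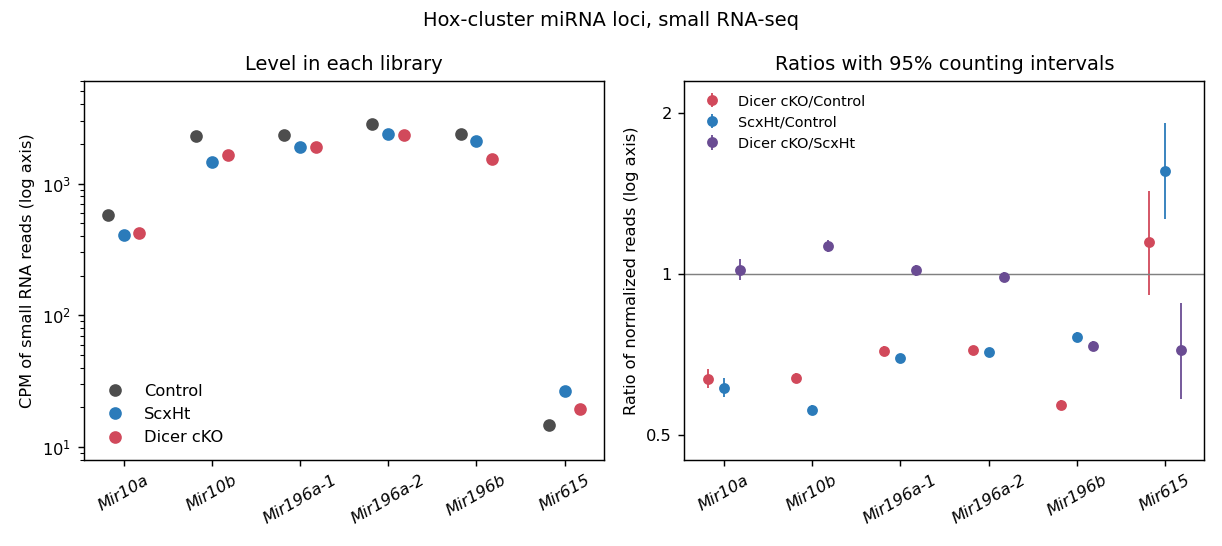
Left, CPM in small RNA-seq (log axis) of each Hox-cluster miRNA locus in the 3 libraries, to be compared between libraries within a locus. Right, ratios of normalized reads (log axis) with 95% counting intervals, which are narrower than the points where none is seen. Of the 6 loci, 5 lie below 1 against Control in both other genotypes, and between Dicer cKO and ScxHt 4 lie close to 1 while Mir196b (0.735) and Mir615 (0.721) lie below.

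Matches to the miRNA seeds were looked for in each gene's longest 3′ UTR, as annotated by GENCODE vM21 on GRCm38, in the sense strand. An 8mer is ACTACCTA for miR-196 or ACAGGGTA for miR-10, and a 7mer lacks its first or its last base. A miR-196 8mer was found in 5 of the 42 member genes (11.9%) and in 1.44% of all 19016 genes with a 3′ UTR, and any miR-196 match in 10 (23.8%) and 12%. A miR-10 8mer was found in 4 members (9.52%) and in 2.20% of all genes, and any miR-10 match in 7 (16.7%) and 18%. A match is a description of the letters and not a shown site. The members with a miR-196 8mer were Hoxa5, Hoxa7, Hoxb6, Hoxb7 and Hoxc8, and those with a miR-10 8mer were Hoxa3, Hoxb3, Hoxd1 and Tbx5.

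The following 22-base stretches show the 4 miR-196 8mers of Hoxa7, the 8mer of Hoxc8 and the shorter miR-10 match of Hoxd10, with the match in capitals. In the stretch of Hoxb8 the capitals are the bases that pair with miR-196a-5p, with G:U pairs not counted.

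Hoxa7, chr6:52215400-52215421, minus strand: ggcacagccaaaatACTACCTA
Hoxa7, chr6:52215363-52215384, minus strand: agaggcactcccaaACTACCTA
Hoxa7, chr6:52215231-52215252, minus strand: aaaccatgatcaatACTACCTA
Hoxa7, chr6:52215210-52215231, minus strand: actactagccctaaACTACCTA
Hoxc8, chr15:102993733-102993754, plus strand: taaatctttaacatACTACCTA
Hoxd10, chr2:74694622-74694643, plus strand: tttttcatcgtaatgCAGGGTA
Hoxb8, chr11:96284888-96284909, plus strand: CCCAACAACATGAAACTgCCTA

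Hoxa7 is the member with the most miR-196 8mers and was the member nearest to the upper limit in Dicer cKO over Control, at 1.66. In ScxHt over Control, where the miR-196 loci stood at 0.697, 0.717 and 0.764, Hoxa7 stood at 0.663 (0.421 to 1.03). The other members with an 8mer had no shared direction. Hoxc8 had a Dicer cKO over Control ratio of 1.02 (0.806 to 1.29), Hoxa5, with 20, 14 and 23 reads, 1.19 (0.627 to 2.29), Hoxb6 0.843 (0.550 to 1.28) and Hoxb7, with 18, 11 and 9 reads, 0.519 (0.205 to 1.22). Over all genes above the minimum, the median log2 Dicer cKO over Control ratio was 0.00 with a miR-196 8mer (155 genes) and -0.04 without. For a miR-10 8mer it was -0.10 (268 genes) and -0.03. With any miR-196 match the order was reversed, at -0.05 (1488 genes) and -0.03 without, and any miR-10 match gave -0.05 (2332 genes) and -0.03. In ScxHt over Control the medians were 0.01 with a miR-196 8mer and 0.02 without, and -0.02 and 0.02 for miR-10.

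The Hoxb8 stretch pairs at 21 of 22 bases with miR-196a-5p and at 20 with miR-196b-5p, with G:U pairs not counted. The base not counted with miR-196a-5p is a G opposite a U of its seed, which can form a G:U pair. Pairing of this extent is known to let a miRNA direct the cutting of its target. Hoxb8 had 7, 10 and 10 reads (0.164, 0.241 and 0.254 RPKM), and its ratios of 1.48 (0.510 to 4.59) for Dicer cKO over Control and 1.37 (0.470 to 4.24) for ScxHt over Control hold 1, so that a difference was not detectable at this depth. Hoxd10 had the ratio of 1.34 given above, and Tbx5 that of 0.0944.

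Other genes tied to the Hox code were read from lists. The TALE genes encode homeodomain partners with which Hox proteins bind DNA. Of 11 found, 9 were above the minimum and none passed a limit in any of the 3 comparisons. Of all rows, 3.87% were higher and 4.17% lower in Dicer cKO over Control. These shares were 3.05% and 4.73% in ScxHt over Control, and 7.67% and 5.68% in Dicer cKO over ScxHt. Polycomb and trithorax genes encode the chromatin complexes that keep Hox genes silent or active. Of 23 found, 22 were above the minimum and none passed a limit in any comparison, beside the same shares of all rows. Kmt2a, a trithorax gene and the most read of them, had 4044, 4045 and 3332 reads and a ratio of 0.856 (0.817 to 0.896). Of the genes that flank the clusters, 10 were above the minimum and none passed a limit, with Tax1bp1 beside HoxA at 1.01 (0.969 to 1.06). At the shares of all rows, lists this short would hold few or no genes past a limit.

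Of the noncoding RNAs of the clusters, only Hoxa11os was above the minimum. Hotair, transcribed from the HoxC cluster between Hoxc12 and Hoxc11, had 10 (Control), 40 (ScxHt) and 43 (Dicer cKO) reads. It was singled out after its values were seen. Its ratios were 4.47 (2.21 to 9.97) for Dicer cKO over Control, 3.83 (1.88 to 8.60) for ScxHt over Control and 1.18 (0.752 to 1.87) for Dicer cKO over ScxHt. The Control library was the low one, as for Hoxa13. Hoxb3os, from the same list and also below the minimum, went the other way, with 15, 0 and 4 reads. Its ratios were 0.277 (0.0669 to 0.869) for Dicer cKO over Control and 0 (0 to 0.267) for ScxHt over Control. The list thus had no shared direction.

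Other limb patterning genes, which act with the Hox code in the limb bud, came from a further list. Of the 19 above the minimum in Dicer cKO over Control, 1 was higher and 3 lower, beside 3.87% and 4.17% of all rows, with a median log2 ratio of -0.17. En1, a homeobox gene of the ventral limb, had 54, 58 and 92 reads and a ratio of 1.77 (1.25 to 2.52). Twist2, a bHLH factor of mesenchyme, had 111, 69 and 30 reads and ratios of 0.281 (0.181 to 0.423) and 0.596 (0.435 to 0.812) for Dicer cKO over Control and ScxHt over Control. Hand2, which acts in the posterior limb bud, had 139, 241 and 66 reads and a Dicer cKO over Control ratio of 0.493 (0.362 to 0.666), and Alx4, which acts in the anterior limb bud, 152, 160 and 78 reads and 0.533 (0.400 to 0.705). In ScxHt over Control, Prrx2 was higher at 1.75 (1.31 to 2.35), from 75 and 137 reads, and Twist2 was lower, of 18 genes, beside 3.05% and 4.73% of all rows. Against ScxHt, 1 of 17 was higher in Dicer cKO and 3 were lower, beside 7.67% and 5.68%. Prrx1, a limb mesenchyme gene and the most read of the list, had 7984, 7772 and 5164 reads and a Dicer cKO over Control ratio of 0.672 (0.648 to 0.696).

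Retinoic acid and Cdx factors regulate Hox genes in the embryo. Of the 15 genes of that list above the minimum in Dicer cKO over Control, 2 were lower and none higher, beside 4.17% and 3.87% of all rows. Crabp2, which carries retinoic acid to its receptors, had 89, 58 and 20 reads and a ratio of 0.233 (0.136 to 0.382), and the receptor gene Rxrg had 89, 91 and 48 reads and 0.560 (0.386 to 0.804). In ScxHt over Control, Cyp26a1, an enzyme that breaks down retinoic acid, had 106 and 185 reads and a ratio of 1.67 (1.31 to 2.14), just past the limit, and it was the only one past a limit of 15, beside 3.05% higher and 4.73% lower of all rows. Against ScxHt, 4 of 14 were lower in Dicer cKO and none was higher, beside 5.68% and 7.67%. Rxra, the most read of the list, had 1250, 1092 and 1036 reads and a Dicer cKO over Control ratio of 0.861 (0.792 to 0.935).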

How the data were processed

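Per the labels and the study's methods, total RNA of Achilles tendon was sequenced as RNA-seq and small RNA-seq. The authors mapped trimmed reads to GRCm38 and counted them per gene, and the submitters' processing notes name TopHat, Bowtie2, HTSeq and DESeq2. The deposited raw count of each gene was used for ratios, the deposited RPKM for levels in RNA-seq, and reads for levels of the miRNA loci. In RNA-seq 692, 763 and 605 rows of the Control, ScxHt and Dicer cKO libraries have an RPKM above 0 at a count of 0 (Hoxb13 among them in Dicer cKO), so the counts may be rounded. The strand setting is not given in the sources used here.

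Size factors of the 2 libraries compared came from DESeq2 1.42.0 (R 4.3.3) and scaled their counts. Ratios and exact Clopper-Pearson intervals (95%) used scipy 1.17.1, pandas 2.3.3 and numpy 2.4.6 under Python 3.11.15, and figures with matplotlib 3.10.9. The minimum mean of normalized counts was 50 in RNA-seq and 15 in small RNA-seq, and the limits were 1.67 and 0.60. Sequenced reads are not independent molecules, so the intervals and the floor of 3 reads cover counting error only. No test between mice could be made with 1 library per genotype. Positions and UTRs came from GENCODE vM21, in which 52.5% of RNA-seq rows and 96.9% of small RNA-seq rows were found by symbol, and mature miRNAs from RefSeq. The calculation was tested on simulated data.

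Every member was to be named or counted. From each further list, genes past a limit in Dicer cKO over Control or ScxHt over Control with an interval on 1 side of 1 were named, with the most read gene. A single value that this rule covers is not reported here. The members and the lists were chosen with earlier results of these data known. The alternatives were edgeR 4.0.16 TMM factors, total counts, size factors over 3 libraries, total counts without features above 1% of a library, other minimums (10, 200 or none in RNA-seq, 5, 100 or none in small RNA-seq), the whole interval past a limit, limits of 2 and 0.5, and 1 added to each normalized count.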

Additional observations from a re-analysis of the deposited data

Results flagged for a closer look

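Hairpin rows of the miRNA loci also appear in the RNA-seq table, which no comparison used for them. Of the 6 loci, 2 had more reads there than the 3 that a count of 0 allows. Mir196a-1 had 5 reads in the Control and 4 in the Dicer cKO library, and Mir196b had 7 reads in the Dicer cKO library, against 2 in each of the others. The other loci had at most 3 reads.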

How the results depend on the processing

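No paired analysis was possible because each genotype had 1 library per assay and no result comes from a test. No ratio past a limit changed its side of 1, and 294 ratios of single members stayed within their counting interval while 36 did not. All 36 were ratios of miRNA loci, and every RNA-seq ratio stayed within its interval. For example, Mir196b in Dicer cKO over Control was 0.571 (0.559 to 0.583) and became 0.649 with total counts. The members counted were those above the minimum in use, 16 at the main one. At the lower minimum they were 32 in Dicer cKO over Control, 31 in ScxHt over Control and 30 in Dicer cKO over ScxHt. The count higher in Dicer cKO over Control went from 0 to 1 (Hoxa7) with TMM factors, total counts, size factors over 3 libraries or total counts without features above 1%, to 1 with the lower minimum and to 3 with none. The count lower went from 2 to 1 with total counts, the higher minimum, limits of 2 and 0.5 or the whole interval, to 6 with the lower minimum and to 8 with none. Of all rows in this comparison, 672 were higher and 441 lower of 13508 with total counts, and 160 and 239 of 8375 with the higher minimum. With the wider limits they were 215 and 216 of 13504, with the whole interval 164 and 184 of 13504, and with no minimum 5392 and 5495 of 28528. In ScxHt over Control the count higher was 1 with the lower minimum and 4 with none, and the count lower was 7 with either and 0 with the higher minimum, the wider limits or the whole interval. Its median log2 ratio was 0.17 with total counts and -0.26 with the lower or no minimum. In Dicer cKO over ScxHt the count higher was 8 with the lower minimum, 10 with none and 0 with the higher, the count lower 10 with no minimum, 2 with the higher and 0 with wider limits or the whole interval, and the median 0.19 with the lower and -0.34 with the higher minimum. Fewer or more genes enter under other minimums, and the shares of all rows at the lower one are given above. With no minimum, 5205 rows were higher and 5552 lower of 28636 in ScxHt over Control, and 6012 and 5667 of 28554 in Dicer cKO over ScxHt. With the higher minimum they were 86 and 285 of 8532, and 521 and 384 of 8477. The wider limits gave 124 and 291 of 13563, and 611 and 317 of 13555. Among the miRNAs, the 1 locus past a limit in Dicer cKO over Control became 0 with either total-count scaling or wider limits, and in ScxHt over Control it became 2 (Mir10b and Mir615) with total counts without features above 1% and 0 with wider limits. With total counts it stayed at 1, but Mir10b (0.644) lost the call and Mir615 (1.81) gained it as higher. Of all small RNA rows, 46 were higher and 9 lower of 334 with total counts in Dicer cKO over Control, and 25 and 11 of 331 in ScxHt over Control. Without features above 1% they were 37 and 10 of 334, and 15 and 14 of 332. With wider limits they were 11 and 9 of 334, and 6 and 9 of 332. Total counts moved the median log2 of all small RNA rows by 0.18 and 0.21 in these comparisons.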
